A study of Mus musculus with 12 samples.

Results

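The genes described here are 9 transcription factor genes of the B lineage: Bach2, Bcl6, Pax5, Ebf1, Foxo1, Irf8, Spib, Satb1 and Spi1. They were chosen by name, with earlier results of these data known. Their Ensembl identifiers were matched by symbol in GENCODE mouse release M21. All 9 were found among the 46078 genes of the deposited count table, and each held between 1128 and 41377 reads in every library, so none was lost to a filter on low counts. The table holds 12 RNA-seq libraries, made from spleen B cells of C57BL/6 animals that were 8 to 12 weeks old. The groups were marginal zone (MZ) B cells of conditional knockout (CKO) mice, MZ B cells of Control mice, follicular (FO) B cells of CKO mice and FO B cells of Control mice, with 3 libraries in each group. CKO mice are labelled Zbtb24-/- and described as VAVcre-Zbtb24. The Control genotype is labelled WT, while the study's design text describes these mice as VAVcre, so Cre may have been present in every group. VAVcre drives Cre recombinase throughout blood-forming cells, so the deletion is not particular to B cells.

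Both cell types were purified on magnetic columns with a commercial kit, and 0.1 ug of total RNA went into each library. Gene counts summed to between 36340116 and 44629250 reads per library. Levels are given as CPM, counts scaled to library size with TMM factors over the 12 libraries. Zbtb24, the targeted gene, was still counted in CKO libraries. Its level was 41.8 to 46.4 CPM in MZ CKO libraries and 49.1 to 54.4 CPM in MZ Control libraries. In FO B cells it was 46.9 to 50.02 CPM in CKO libraries and 60.8 to 62.5 CPM in Control libraries. Gene-level counts do not separate reads of the deleted part from those of the rest of the gene. Summed CPM of 7 MZ B cell markers was 5183 to 6691 in MZ CKO and 5923 to 6645 in MZ Control libraries, against 1526 to 1829 in FO CKO and 1247 to 1641 in FO Control libraries. Summed CPM of 4 FO B cell markers was 1552 to 1880.0 in MZ CKO and 1430.3 to 1565 in MZ Control libraries, against 3367 to 4069 in FO CKO and 3328 to 3750.2 in FO Control libraries. Both sums separated the labelled cell types in all 12 libraries. All 7 MZ markers were called higher in MZ B cells in each genotype. Over all genes tested, 18.3% were called in either direction in CKO and 27.9% in Control mice. Of the 4 FO markers 3 were called lower, while Cxcr5, singled out after its value was seen, was called higher in MZ (log2 0.45 in CKO and 0.38 in Control mice).

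B cell identity is set by a network of DNA-binding proteins that act in sequence and on one another's genes. SPI1 (PU.1) acts early in blood-forming progenitors, EBF1 and FOXO1 open the B cell programme, and PAX5 then commits cells to it by activating B cell genes and silencing those of other lineages. In mature B cells, BACH2 and BCL6 repress the plasma cell programme, IRF8 and SPIB hold the mature state together with SPI1, and SATB1 organises chromatin loops. FO B cells recirculate and feed germinal centre responses, whereas MZ B cells stay at the edge of the splenic white pulp and turn quickly into antibody-secreting cells. ZBTB24 is a zinc finger protein of the same broad BTB family as BCL6, and mutations in its human gene cause a form of ICF syndrome with low antibody levels.

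Across all 12 libraries the 9 factors covered a wide range of transcript levels. Levels of different genes were set side by side only per length, as TPM, which divides counts by the summed exon length of each gene before scaling to the library. Spib stood first in every group, at a mean of 817 ± 141 TPM in MZ CKO, 795 ± 71.0 TPM in MZ Control, 816 ± 77.4 TPM in FO CKO and 903 ± 33.9 TPM in FO Control libraries (SD, n = 3 each). Pax5 and Irf8 came next. Pax5 averaged 191 and 184 TPM in MZ CKO and MZ Control libraries, where it stood above Irf8 at 161 and 156 TPM. In FO CKO and FO Control libraries Pax5 averaged 222 and 235 TPM and stood below Irf8 at 228 and 249.5 TPM, but the libraries of these neighbours overlapped in each of the 4 groups. Spi1 followed at 94.7, 90.5, 103 and 112 TPM, and Ebf1 at 68.1, 64.8, 74.3 and 81.3 TPM, in MZ CKO, MZ Control, FO CKO and FO Control libraries. The libraries of Spi1 and Ebf1 did not overlap in any group.

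The order of the remaining 4 genes differed between the cell types. In MZ B cells Bach2 was the lowest of the 9, at 10.9 ± 1.99 TPM in CKO and 9.48 ± 1.60 TPM in Control libraries. Bcl6 stood just above it at 12.7 ± 0.907 TPM in MZ CKO and 13.5 ± 2.50 TPM in MZ Control libraries, and these neighbours overlapped in MZ CKO but not in MZ Control libraries. Foxo1, the highest of the 4 in MZ B cells at 22.2 ± 2.89 TPM in CKO and 21.6 ± 0.981 TPM in Control libraries, was the lowest of the 9 in FO B cells, at 30.9 ± 3.41 TPM in CKO and 33.5 ± 3.32 TPM in Control libraries. Bach2, Bcl6 and Satb1 lay together in FO B cells, between 39.1 and 44.0 TPM in CKO and between 44.3 and 44.5 TPM in Control libraries, and their order there was within the spread of the libraries.

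The comparison of MZ with FO B cells asks how the factors differ between these mature B cell types in each genotype. Bach2, Bcl6 and Satb1 fell strongly in MZ B cells, Irf8 and Foxo1 fell by less, and none of the 9 rose. In CKO mice 5 of 9 passed at an edgeR adjusted p under 0.05, all lower in MZ, beside 18.3% of all genes tested (7.78% lower). In Control mice the same 5 of 9 passed, all lower in MZ, beside 27.9% of all genes tested (13% lower). The median log2 fold change of the 9 was -0.32 in CKO and -0.42 in Control mice, against -0.01 and 0.01 over all genes tested. Because the 9 were chosen with earlier results of these data known, the gap to all genes does not test the set. With the label number of the mouse as a block, 6333 genes passed in CKO mice in place of 3243 and 7805 passed in Control mice in place of 4977, and the count of the 9 stayed at 5 in both. In bulk RNA, fewer cells with a transcript and less of it per cell cannot be told apart.

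**Figure D1:**
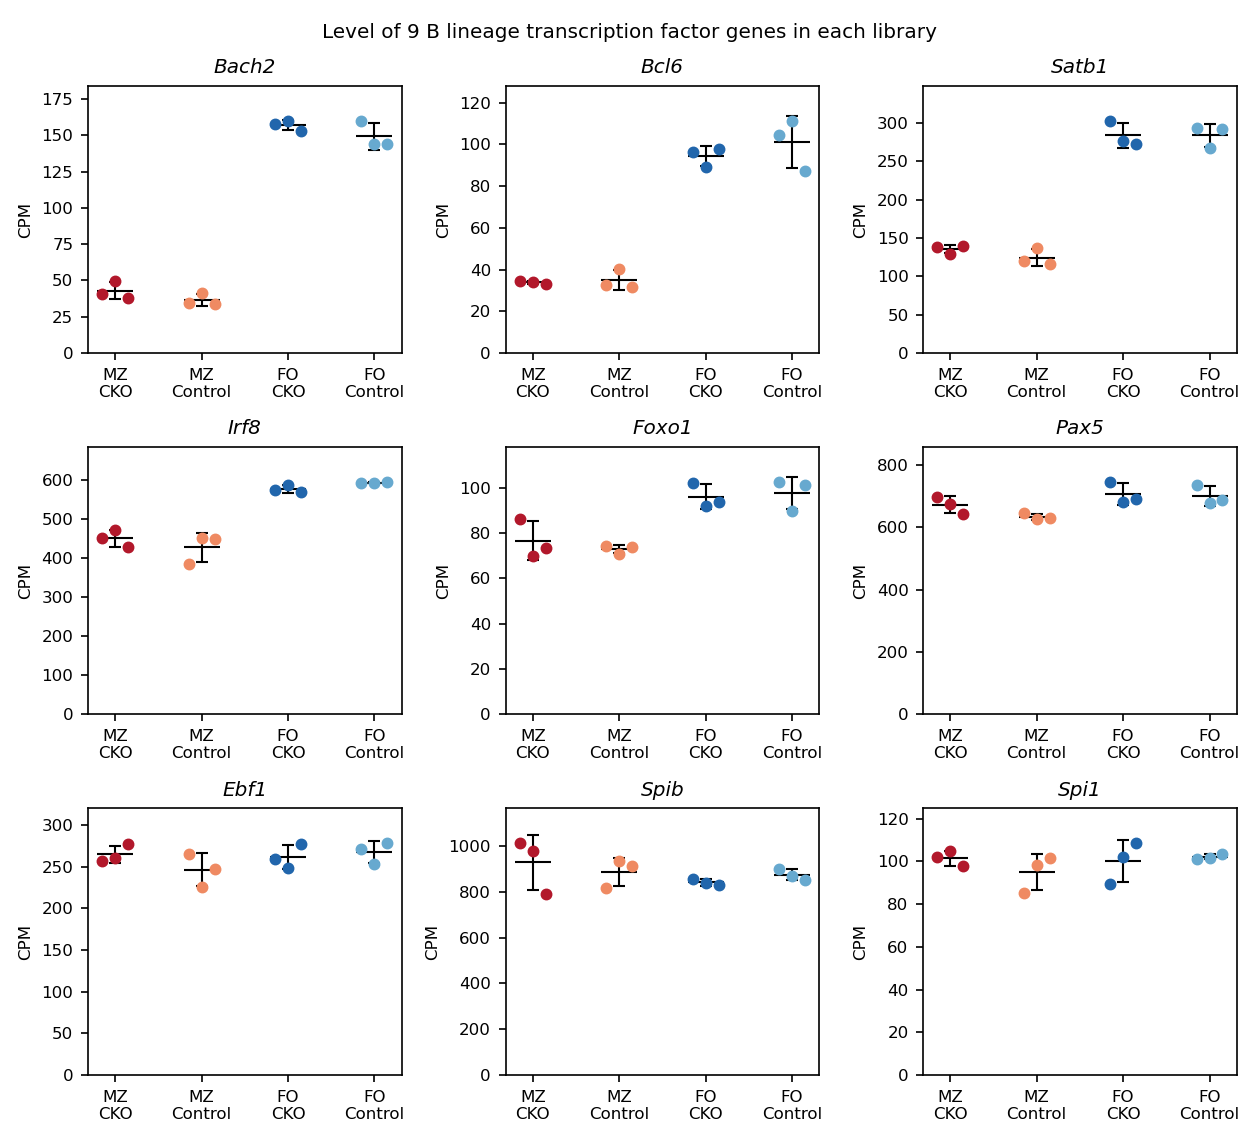
CPM of each of the 9 genes (y axis, from 0, scaled per gene) in the libraries of the 4 groups (x axis); points are libraries, and bars are the mean with the SD of 3 libraries. Bach2, Bcl6 and Satb1 sit far lower in both MZ groups (Bach2 means of 43.0 and 36.5 CPM in MZ CKO and MZ Control, against 157 and 149 CPM in FO CKO and FO Control), while Ebf1, Spib and Spi1 overlap between the cell types.

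Bach2 (ENSMUSG00000040270, chromosome 4, 32238804 to 32586108 on GRCm38, plus strand) encodes a repressor that holds back plasma cell differentiation. It had 41.0, 49.8 and 38.2 CPM in MZ CKO libraries, against 158, 159.9 and 153 CPM in FO CKO libraries. The Control mice had 34.5, 41.5 and 33.5 CPM in MZ libraries, against 159.8, 144 and 144 CPM in FO libraries. Every MZ library lay far below every FO library. Bach2 was 3.63-fold lower in MZ CKO (log2 -1.86, SE 0.10, edgeR adjusted p = 9.76e-06) and 4.09-fold lower in MZ Control libraries (log2 -2.03, SE 0.09, edgeR adjusted p = 5.99e-08). By unadjusted p it ranked 17 of 17712 genes in CKO and 25 of 17830 genes in Control mice. The antisense gene Bach2os shares 5.40% of the Bach2 exon length, and the sources used here do not say whether the authors counted by strand, so reads in that stretch could belong to either.

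Bcl6 (ENSMUSG00000022508, chromosome 16, 23965052 to 23988852, minus strand) encodes the repressor that germinal centre B cells depend on. It had 34.5, 34.0 and 32.9 CPM in MZ CKO libraries, against 96.4, 89.0 and 97.9 CPM in FO CKO libraries. In Control mice the levels were 32.8, 40.4 and 31.8 CPM in MZ libraries, against 104, 111 and 87.2 CPM in FO libraries. The cell types did not overlap in either genotype. The fitted difference was 2.78-fold lower in MZ CKO (log2 -1.47, SE 0.07, edgeR adjusted p = 7.62e-06) and 2.88-fold lower in MZ Control libraries (log2 -1.53, SE 0.12, edgeR adjusted p = 1.76e-05). In CKO mice Bcl6 ranked 8 of all genes by unadjusted p, and in Control mice 428.

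Satb1 (ENSMUSG00000023927, chromosome 17, 51736187 to 51833290, minus strand) encodes a chromatin organiser best known from T cells and early lymphoid progenitors. It had 138, 129 and 139.7 CPM in MZ CKO libraries, against 303, 277 and 273 CPM in FO CKO libraries. Control mice gave 121, 137 and 116 CPM in MZ libraries, against 293, 267 and 292 CPM in FO libraries. Here too every MZ library lay below every FO library, by a smaller factor than for Bach2 and Bcl6. Satb1 was 2.08-fold lower in MZ CKO (log2 -1.06, SE 0.07, edgeR adjusted p = 2.41e-05) and 2.28-fold lower in MZ Control libraries (log2 -1.19, SE 0.08, edgeR adjusted p = 9.68e-07). It ranked 73 by unadjusted p in CKO and 109 in Control mice.

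Since these 3 genes moved together between the cell types, 250 bases before a RefSeq start site of each (build GRCm38.p6) are shown, in the direction of transcription. Promoter windows of 8 of the 9 genes were matched in the RefSeq table, 15 windows in all, and Spi1 was not matched. Capitals mark a match, on either strand, to GGAA followed after any 2 bases by GAAA, the composite letters at which an ETS factor such as SPI1 or SPIB and an IRF such as IRF8 or IRF4 can bind side by side. The Bach2 stretch is chr4:32417185-32417434, plus strand, which in GENCODE M21 lies within Bach2 and outside its exons. The Bcl6 stretch is chr16:23981284-23981533, minus strand, also within the gene and outside its exons. The Satb1 stretch is chr17:51833291-51833540, minus strand, just before the gene, where all 250 bases lie in an exon of Gm6934.
Bach2: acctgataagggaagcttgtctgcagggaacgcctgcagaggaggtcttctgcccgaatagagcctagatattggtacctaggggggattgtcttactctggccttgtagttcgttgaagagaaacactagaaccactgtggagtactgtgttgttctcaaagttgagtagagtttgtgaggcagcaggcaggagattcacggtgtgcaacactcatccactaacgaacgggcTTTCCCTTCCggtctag
Bcl6: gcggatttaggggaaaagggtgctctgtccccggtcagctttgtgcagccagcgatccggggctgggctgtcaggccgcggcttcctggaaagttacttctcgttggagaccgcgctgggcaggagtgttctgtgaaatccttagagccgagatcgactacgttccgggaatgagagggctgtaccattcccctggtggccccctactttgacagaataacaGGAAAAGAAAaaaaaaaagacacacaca
Satb1: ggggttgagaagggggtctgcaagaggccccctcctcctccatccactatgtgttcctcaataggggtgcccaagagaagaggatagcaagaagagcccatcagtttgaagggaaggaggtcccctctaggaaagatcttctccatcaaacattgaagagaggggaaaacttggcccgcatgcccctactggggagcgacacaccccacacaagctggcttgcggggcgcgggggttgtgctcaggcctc
This ETS and IRF composite was found 17 bases before the printed Bach2 start, in reverse as TTTCCCTTCC, and 28 bases before the printed Bcl6 start as GGAAAAGAAA. Both are starts inside the annotated gene, whereas the printed Satb1 stretch is at the gene start. No window at the start of the annotated Bach2 gene, 32238804, was matched. For Bcl6 the window with the match is the one printed. The other Bcl6 window, at the start of the annotated gene, does not hold it. None of the 5 windows of Satb1 holds it, and 2.72% of all 32851 RefSeq windows of 300 bases do. The letters CAGGACCT, which ZBTB24 is reported to bind, are in none of the 15 windows and in 1.99% of all windows. CCCNNGGG, the core letters of an EBF site, occurred in the windows of Foxo1, Irf8 and Spib and in 13.7% of all windows. A match of letters is a description of the window and not a site shown to be bound.

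Irf8 and Foxo1 were lower in MZ B cells by a smaller amount. Irf8 (ENSMUSG00000041515, chromosome 8, 120736358 to 120756694, plus strand), which encodes an interferon regulatory factor that pairs with SPI1 and SPIB, had 451, 473 and 428 CPM in MZ CKO libraries, against 575, 588 and 569 CPM in FO CKO libraries. Control mice gave 385, 451 and 448 CPM in MZ libraries, against 594, 592 and 596 CPM in FO libraries. The cell types did not overlap, and the FO Control libraries were close together, with an SD of 1.73 CPM (n = 3). Irf8 was 1.28-fold lower in MZ CKO (log2 -0.35, SE 0.07, edgeR adjusted p = 0.00955) and 1.39-fold lower in MZ Control libraries (log2 -0.47, SE 0.07, edgeR adjusted p = 0.000605). Without both libraries of mouse 1512 or of mouse 2002 the CKO difference missed the threshold (edgeR adjusted p = 0.0995 and 0.0579), with log2 fold changes of -0.36 and -0.32.

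Foxo1 (ENSMUSG00000044167, chromosome 3, 52268336 to 52353221, plus strand) encodes a forkhead factor that is switched off by PI3 kinase signalling and activates genes of B cell homing and maturation. Its level was 86.4, 69.9 and 73.6 CPM in MZ CKO libraries, against 102, 92.1 and 93.8 CPM in FO CKO libraries. It was 74.3, 70.7 and 73.9 CPM in MZ Control libraries, against 103, 89.8 and 101 CPM in FO Control libraries. The libraries of the cell types did not overlap in either genotype, though the highest MZ CKO library came close to the lowest FO CKO library. Foxo1 was 1.25-fold lower in MZ CKO (log2 -0.32, SE 0.09, edgeR adjusted p = 0.0386) and 1.34-fold lower in MZ Control libraries (log2 -0.42, SE 0.07, edgeR adjusted p = 0.000904). The CKO call held without MZ CKO replicate 1 and was lost without any of the other 5 libraries. Without FO CKO replicates 1, 2 and 3 the edgeR adjusted p was 0.151, 0.0640 and 0.0798, and without MZ CKO replicates 2 and 3 it was 0.101 and 0.109. The antisense gene Gm20402 shares 7.78% of the Foxo1 exon length. With the mouse as a block the CKO call held (edgeR adjusted p = 0.000282).

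The other 4 factors did not pass in either genotype. Pax5 (ENSMUSG00000014030, chromosome 4, 44524757 to 44710487, minus strand), the commitment factor of the B lineage, had 699, 675 and 644 CPM in MZ CKO libraries, against 747, 681 and 693 CPM in FO CKO libraries. Among Control mice the level was 646, 629 and 629 CPM in MZ libraries, against 737, 679 and 687 CPM in FO libraries. The Control groups did not overlap, while the CKO groups did. The antisense genes 5730488B01Rik and Gm12462 share 7.18 and 1.41% of its exon length. The log2 fold change was -0.06 in CKO (95% interval -0.24 to 0.11, edgeR adjusted p = 0.639) and -0.14 in Control mice (95% interval -0.29 to -0.0021, edgeR adjusted p = 0.126). Libraries of the cell types did not overlap for 5 of the 9 genes in CKO and 6 of 9 in Control mice, all lower in MZ, beside 36.4% and 42.3% of all genes in either direction (17.8% and 20.1% lower).

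Ebf1 (ENSMUSG00000057098, chromosome 11, 44617317 to 45008091, plus strand), which acts just before Pax5, had 257, 261 and 277 CPM in MZ CKO libraries, against 259.6, 248 and 277 CPM in FO CKO libraries. In Control mice it had 266, 226 and 247 CPM in MZ libraries, against 271, 253 and 279 CPM in FO libraries. The cell types overlapped in both genotypes, with log2 fold changes of 0.03 in CKO (95% interval -0.13 to 0.18) and -0.12 in Control mice (95% interval -0.28 to 0.04). Spib (ENSMUSG00000008193, chromosome 7, 44525993 to 44532071, minus strand), an ETS factor restricted largely to lymphoid cells, had 1014, 980.0 and 791 CPM in MZ CKO libraries, against 857, 836 and 829 CPM in FO CKO libraries. In Control mice it had 818, 933 and 912 CPM in MZ libraries, against 900.4, 871 and 851 CPM in FO libraries. The MZ libraries lay on both sides of the FO libraries in each genotype, with log2 fold changes of 0.15 in CKO (95% interval -0.08 to 0.38) and 0.02 in Control mice (95% interval -0.13 to 0.18).

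Spi1 (ENSMUSG00000002111, chromosome 2, 91082390 to 91115756, plus strand), the close relative of Spib, had 102, 105 and 97.6 CPM in MZ CKO libraries, against 89.5, 102 and 109 CPM in FO CKO libraries. Control mice had 85.4, 98.2 and 102 CPM in MZ libraries, against 101, 102 and 104 CPM in FO libraries. These groups overlapped, with log2 fold changes of 0.03 in CKO (95% interval -0.15 to 0.21) and -0.10 in Control mice (95% interval -0.27 to 0.06). For Ebf1, Spib and Spi1 the intervals exclude a fall as large as that of Irf8 in the same genotype. The p-values of these genes do not show that the cell types had the same level.

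Each mouse gave one MZ and one FO library by its label number, so the ratio of MZ to FO level could be taken within each of 6 mice. That both libraries of a number came from the same mouse is inferred from the labels. Bach2 had MZ to FO ratios of 0.2497 to 0.311 in CKO mice and 0.216 to 0.288 in Control mice. Bcl6 had 0.336 to 0.382 in CKO and 0.314 to 0.365 in Control mice, and Satb1 had 0.455 to 0.513 in CKO and 0.398 to 0.513 in Control mice. The ratio was below 1 in 6 of 6 mice for these genes and also for Irf8 (0.648 to 0.804 over all mice), Foxo1 (0.724 to 0.844) and Pax5 (0.876 to 0.992). Ebf1 and Spi1 were lower in MZ in 4 of 6 mice, at 0.888 to 1.05 and 0.844 to 1.14, and Spib in 2 of 6, at 0.908 to 1.18.

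**Figure D2:**
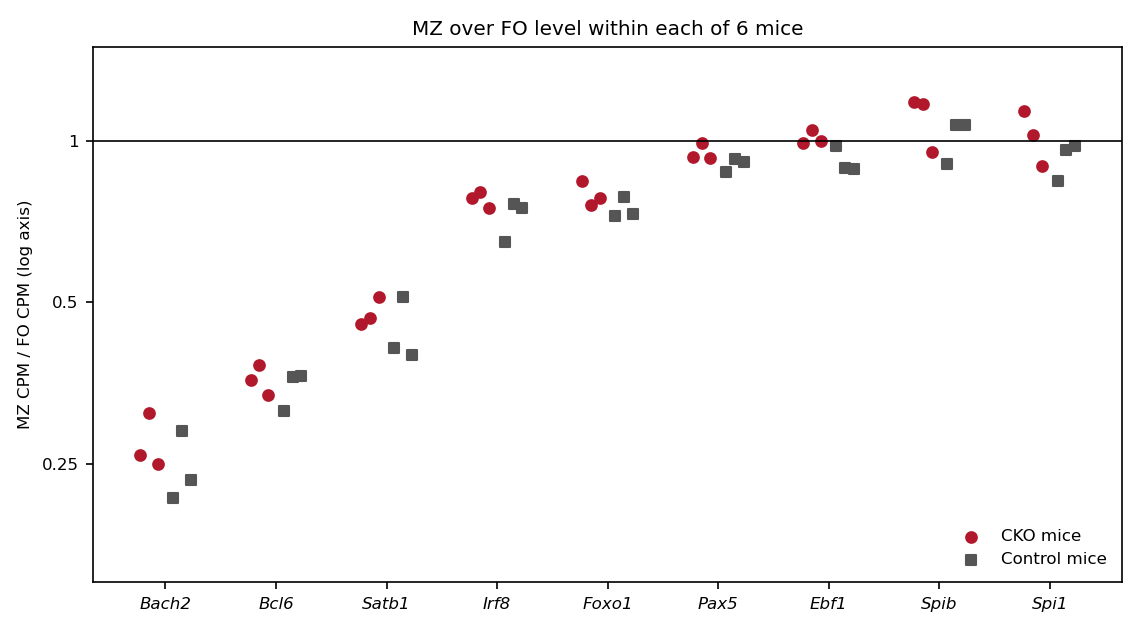
Ratio of MZ to FO level (y axis, log scale) for each gene (x axis) in each of 6 mice, with CKO mice as circles and Control mice as squares and a line at 1. All 6 mice lie below 1 for Bach2 (0.216 to 0.311), Bcl6, Satb1, Irf8, Foxo1 and Pax5, and mice lie on both sides for Ebf1, Spib and Spi1.

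Other cell types that use these factors were looked for by their markers, since Satb1, Bach2 and Foxo1 are also expressed in T cells, Bcl6 in germinal centre B cells and Irf8 in plasmacytoid dendritic cells. None of the 14 T cell markers was at 0 in any library. Their summed level was 210.2 to 324 CPM in MZ CKO and 233 to 395 CPM in MZ Control libraries, against 342 to 484 CPM in FO CKO and 505 to 564 CPM in FO Control libraries. Of the 14, 4 were lower in MZ and none higher in CKO mice, beside 7.78% of all genes called lower. In Control mice 9 were lower and none higher, beside 13% of all genes called lower. The called T cell markers thus moved in the direction of Satb1, Bach2 and Foxo1. Within each genotype their summed level did not overlap between the cell types.

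The 6 germinal centre markers summed to 9.77 to 18.6 CPM in MZ CKO and 10.2 to 12.5 CPM in MZ Control libraries, against 19.4 to 46.1 CPM in FO CKO and 14.9 to 25.4 CPM in FO Control libraries. None was at 0 in any library. By edgeR 0 passed in CKO mice, where 3 had an unadjusted p under 0.05, and 4 were lower in MZ in Control mice. Over all genes, 7.78% were called lower in CKO and 13% in Control mice. Their sums did not overlap between the cell types within either genotype, and were lower in MZ, as Bcl6 was. The 5 plasmacytoid dendritic cell markers, none at 0, summed to 10.4 to 14.3 CPM in MZ CKO and 14.95 to 21.7 CPM in MZ Control libraries, against 13.7 to 21.3 CPM in FO CKO and 16.4 to 30.1 CPM in FO Control libraries. None passed in CKO mice, where 1 had an unadjusted p under 0.05 by edgeR, and 1 was lower in MZ in Control mice. Their sums overlapped between the cell types in both genotypes. The part of these cells in the differences of Satb1, Bach2, Foxo1, Bcl6 and Irf8 was not tested.

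**Figure D3:**
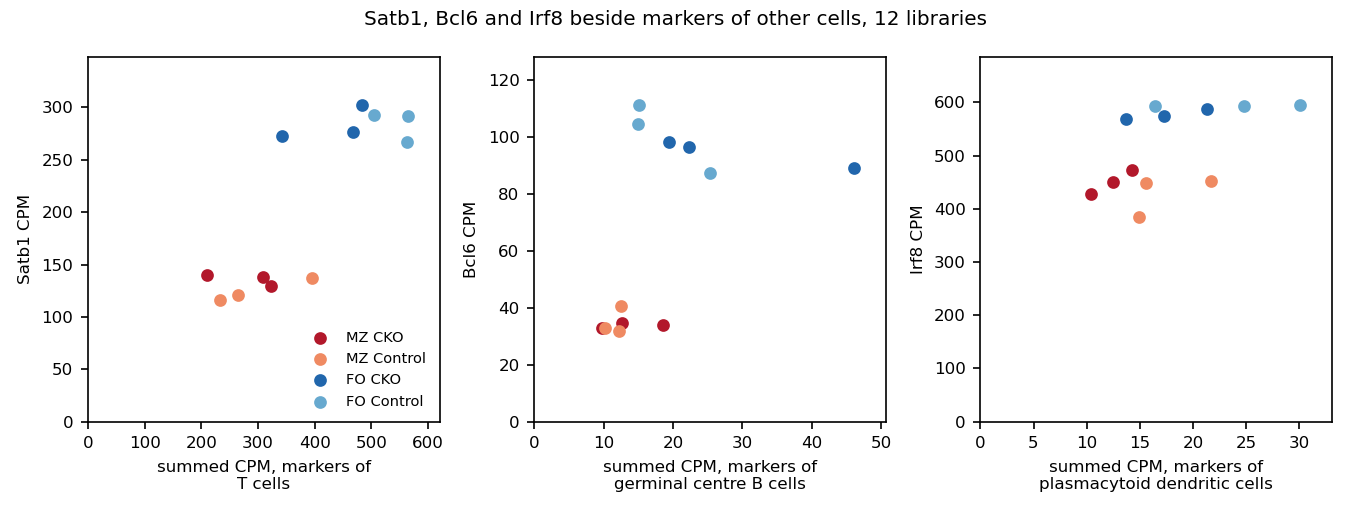
Level of Satb1, Bcl6 and Irf8 (y axes, CPM) against the summed CPM of T cell, germinal centre and plasmacytoid dendritic cell markers (x axes) in 12 libraries, colored by group. Within each genotype the MZ libraries lie below the FO libraries on all 3 y axes, and also to their left for T cell and germinal centre markers (T cell sums of 210.2 to 324 CPM in MZ CKO, against 342 to 484 CPM in FO CKO libraries).

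The comparison of CKO with Control mice asks whether the factors change with the deletion of Zbtb24. None of the 9 changed by the test in either cell type. In MZ B cells edgeR called 0 of 9, beside 0.0793% of 17658 genes tested, and in FO B cells 0 of 9, beside 0.09% of 17777 genes. None of the 9 had an unadjusted p under 0.05 in either cell type, against 512 genes in MZ and 717 in FO, and DESeq2 and limma-voom also called 0 of 9. A block for the replicate number brought the count over all genes in FO B cells to 25 in place of 16, again with none of the 9. The adjusted p of every one of the 9 was 0.99995 in MZ and 0.9995 in FO B cells.

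The fitted intervals give the size of change these libraries leave room for. In MZ B cells the log2 fold change ran from -0.05 for Bcl6 to 0.23 for Bach2 (SE 0.12, edgeR unadjusted p = 0.0679), and 8 of the 9 were above 0. Bach2 averaged 43.0 ± 6.02 CPM in MZ CKO and 36.5 ± 4.34 CPM in MZ Control libraries (SD, n = 3 each), and 2 of the 3 CKO libraries lay within the Control range. The 95% interval of its change ran from -1.42 to 40.3% of the Control level, and that of Bcl6 from -17.3 to 12.6%. For the other 7 genes the intervals in MZ B cells lay between -11.1 and 23.3%. Satb1 averaged 136 ± 5.55 CPM in MZ CKO and 124.5 ± 10.9 CPM in MZ Control libraries (95% interval of the change -3.95 to 23.3%).

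In FO B cells the log2 fold changes ran from -0.09 for Bcl6 to 0.08 for Bach2. Bach2 averaged 157 ± 3.47 CPM in FO CKO and 149 ± 9.17 CPM in FO Control libraries, with a 95% interval of -4.34 to 16.1%. Bcl6 averaged 94.5 ± 4.78 CPM in FO CKO and 101 ± 12.4 CPM in FO Control libraries, with a 95% interval of -18.3 to 7.62%. Irf8 was the one gene whose libraries did not overlap between genotypes in FO B cells, at 569 to 588 CPM in CKO and 592 to 596 CPM in Control libraries, beside 9.33% of all genes (4.88% lower). Its fitted change was a log2 fold change of -0.04 (95% interval -11.1 to 6.72%). In MZ B cells 0 of the 9 were apart, beside 7.63% of all genes. The T cell markers summed to 342 to 484 CPM in FO CKO and 505 to 564 CPM in FO Control libraries. These sums did not overlap between genotypes in FO B cells, whereas they did in MZ B cells. By edgeR 4 of the 14 had an unadjusted p under 0.05 in FO B cells and 0 were called. Among the 7 MZ B cell markers, 4 had such a p in FO B cells, with 0 called and a median log2 fold change of 0.26. Their sums overlapped, at 1526 to 1829 CPM in FO CKO and 1247 to 1641 CPM in FO Control libraries. In MZ B cells 1 of the 4 FO B cell markers had such a p, with 0 called. Over all genes tested, 717 of 17777 in FO and 512 of 17658 in MZ B cells had one. The part of T cells, or of a mix of MZ and FO B cells, in the genotype comparisons was not tested.

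**Figure D4:**
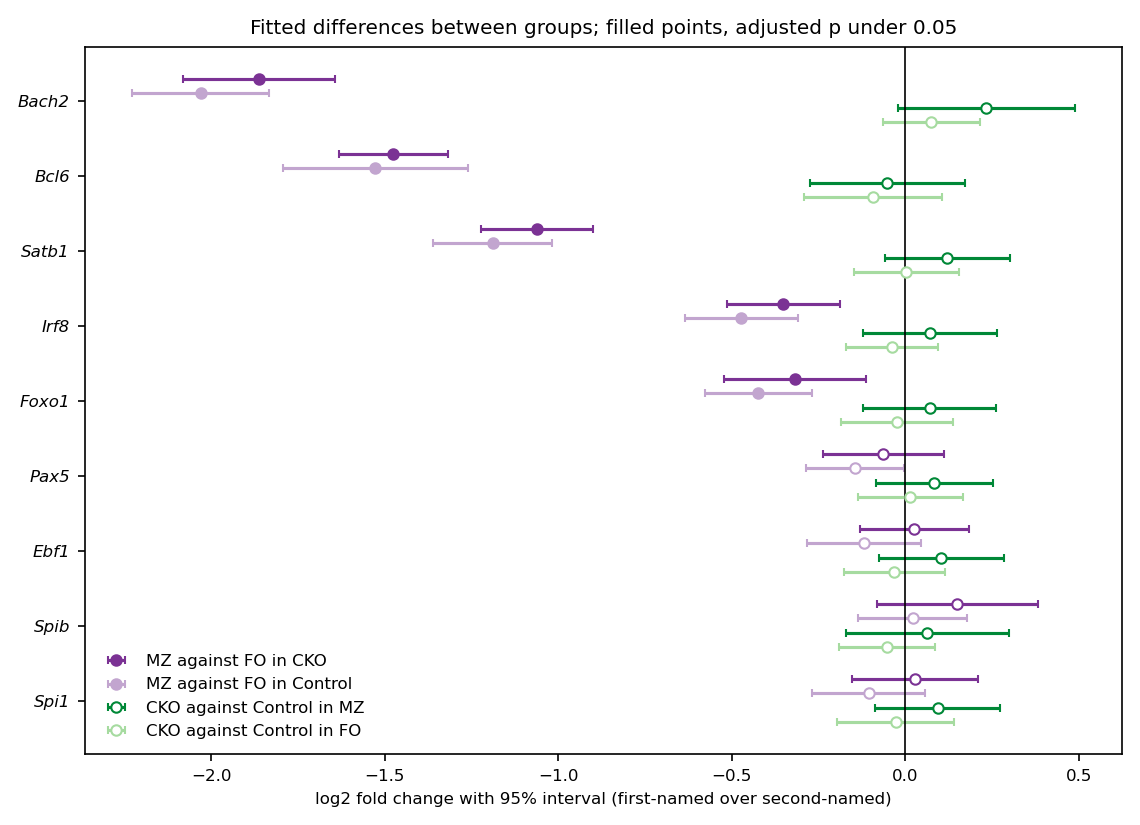
log2 fold change (x axis) with its 95% interval for each gene (y axis) in 4 comparisons; filled points passed at an adjusted p under 0.05. The genotype points lie between -0.09 and 0.23, whereas Bach2, Bcl6 and Satb1 lie between -2.03 and -1.06 for MZ against FO.

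The difference between the genotype effects of the cell types was tested on its own. The effect in MZ minus that in FO ran from 0.04 for Bcl6 (SE 0.14) to 0.16 for Bach2 (SE 0.14) on the log2 scale. The median was 0.12, against 0.00 over all genes tested. None of the 9 passed (edgeR adjusted p = 0.99998 for each), beside 0% of 18546 genes. Over all genes, 238 had an unadjusted p under 0.05, none of them among the 9, and DESeq2 and limma-voom also called 0, while 4 genes passed with the mouse as a block. The genotype comparisons and the MZ against FO comparisons use the same 12 libraries, so they are not independent of one another.

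Close relatives of the 9 factors were also counted. Of 20 such paralogs 14 passed the filter on low counts, and in CKO mice 1 rose and 2 fell in MZ B cells, and in Control mice 1 rose and 3 fell. These counts are near the share of all genes called in either direction, which was 18.3% in CKO and 27.9% in Control mice. Irf4, which drives plasma cell differentiation and binds with SPI1 and SPIB like IRF8, rose in MZ B cells. It averaged 325 ± 12.7 CPM in MZ CKO and 229 ± 18.0 CPM in FO CKO libraries, a log2 fold change of 0.51 (SE 0.08, edgeR adjusted p = 0.00183). In Control mice it averaged 329.8 ± 10.9 CPM in MZ and 242 ± 8.20 CPM in FO libraries (log2 0.44, SE 0.06, edgeR adjusted p = 0.000304). Per length, the ratio of Irf8 to Irf4 TPM was 0.967 ± 0.0795 in MZ CKO and 0.903 ± 0.0916 in MZ Control libraries, against 1.76 ± 0.151 in FO CKO and 1.70 ± 0.0525 in FO Control libraries. Irf8 exceeded Irf4 in every FO library, by a ratio of at least 1.58, and the ratio lay between 0.805 and 1.03 in the MZ libraries.

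Bach1, the widely expressed relative of Bach2, had log2 fold changes of -0.21 in CKO (edgeR adjusted p = 0.0981) and -0.33 in Control mice (edgeR adjusted p = 0.00236). The ratio of Bach2 to Bach1 TPM was 0.582 ± 0.0379 in MZ CKO and 0.493 ± 0.0506 in MZ Control libraries, against 1.83 ± 0.0525 in FO CKO and 1.61 ± 0.119 in FO Control libraries. Irf2 fell in MZ B cells (log2 -0.68 in CKO and -0.73 in Control mice), as did Foxo4 (log2 -0.65 in CKO and -0.51 in Control mice). The ratio of Foxo1 to Foxo3 TPM was 0.481 ± 0.0612 in MZ CKO and 0.483 ± 0.0301 in MZ Control libraries, against 0.620 ± 0.0453 in FO CKO and 0.573 ± 0.0373 in FO Control libraries. The ratio of Spib to Spi1 TPM was 8.58 ± 0.883 in MZ CKO and 8.79 ± 0.303 in MZ Control libraries, against 7.96 ± 0.940 in FO CKO and 8.04 ± 0.321 in FO Control libraries. The cell types overlapped in this ratio in CKO mice, and in Control mice every MZ library lay above every FO library.

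Among 35 tested of 36 other transcription factors of B lineage cells, 6 rose and 8 fell in MZ B cells of CKO mice. In Control mice 7 rose and 11 fell. Over all genes tested, 18.3% were called in either direction in CKO and 27.9% in Control mice. This list too was chosen with earlier results of these data known. The ETS factor gene Fli1 fell (log2 -0.93 in CKO and -1.07 in Control mice), as did the homeobox gene Hhex (log2 -0.65 and -0.80). Aff3 (log2 -0.60 in CKO and -0.88 in Control mice) and Mef2c, a factor downstream of B cell receptor signals (log2 -0.74 and -0.84), fell as well. Prdm1, which encodes BLIMP-1, the driver of the plasma cell programme that BACH2 and BCL6 repress, was higher in MZ B cells. It averaged 9.84 ± 0.987 CPM in MZ CKO and 3.22 ± 0.486 CPM in FO CKO libraries, a log2 fold change of 1.62 (SE 0.17, edgeR adjusted p = 0.000280). In Control mice, where it was picked out after its value was seen, it averaged 9.06 ± 0.607 CPM in MZ and 3.46 ± 1.02 CPM in FO libraries (log2 1.39, SE 0.21, edgeR adjusted p = 0.000485). Nfatc1, a calcium-regulated factor, rose (log2 0.69 in CKO and 0.58 in Control mice). The median log2 fold change of the list was 0.0039 in CKO and -0.07 in Control mice.

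Genes that the factors are reported to control were then counted, from lists chosen with earlier results of these data known. The counts of these lists stand beside 18.3% of all genes called in either direction in CKO and 27.9% in Control mice. Of 14 reported PAX5-activated genes, 4 rose and 4 fell in MZ B cells of CKO mice, and 5 rose and 6 fell in Control mice, with medians of -0.06 and -0.13. The list holds Bach2, Irf8 and Spib themselves. Fcer2a, which encodes the FO B cell marker CD23, fell (log2 -2.74 in CKO and -3.00 in Control mice), and Cr2, which encodes the MZ B cell marker CD21, rose (log2 1.62 and 1.97). The adaptor gene Blnk rose (log2 0.66 in CKO and 0.68 in Control mice) and the inhibitor gene Id3 fell (log2 -0.83 and -0.94). Of 8 reported PAX5-repressed genes, 2 fell in CKO and 3 in Control mice and 0 rose, with medians of -0.53 and -0.51. The adaptor gene Grap2 fell (log2 -0.89 in CKO and -0.98 in Control mice). The others passed in 1 genotype while the value in the other lay on the same side of 0. They were the T cell marker Cd28, which passed in CKO mice (log2 -0.71 in CKO and -0.75 in Control mice), and the Fc receptor chain gene Fcer1g (log2 -0.59 and -0.59) and the dendritic cell marker Flt3 (log2 -0.45 and -0.42), which passed in Control mice.

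Of 10 tested of 12 reported EBF1-activated genes, 2 rose and 1 fell in CKO mice, and 5 rose and 2 fell in Control mice, beside 18.3% and 27.9% of all genes called, with medians of 0.12 and 0.14. The kinase gene Blk rose (log2 0.95 in CKO and 0.92 in Control mice), as did the inhibitory Fc receptor gene Fcgr2b (log2 0.44 and 0.50). Foxo1 is a member of this list and fell, and the surrogate light chain relative Vpreb3 fell in Control mice (log2 -1.44), with a log2 fold change of -0.99 in CKO mice that did not pass (edgeR adjusted p = 0.0510). Of 15 tested of 16 reported FOXO1 targets, 1 rose and 3 fell in CKO mice, and 1 rose and 5 fell in Control mice, beside the same 18.3% and 27.9% of all genes, with medians of -0.24 and -0.35. Klf2, a regulator of lymphocyte homing, averaged 102 ± 24.8 CPM in MZ CKO and 373 ± 19.7 CPM in FO CKO libraries, and 83.3 ± 15.5 CPM in MZ Control and 374 ± 19.7 CPM in FO Control libraries. Its log2 fold change was -1.86 in CKO and -2.17 in Control mice. The chemokine receptor gene Ccr7 also fell (log2 -1.16 in CKO and -1.40 in Control mice), while S1pr1, the receptor that keeps MZ B cells at the sinus, rose (log2 1.17 and 1.24).

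Of 13 genes reported to be repressed by BACH2 or BCL6, 4 rose and 3 fell in MZ B cells in each genotype, with medians of 0.28 in CKO and 0.18 in Control mice. Prdm1 and S1pr1 were among those that rose, together with the costimulatory gene Cd80 (log2 1.22 in CKO and 1.62 in Control mice). The activation marker Cd69 fell (log2 -1.22 in CKO and -1.29 in Control mice), as did the chemokine receptor gene Ccr6 (log2 -0.94 and -1.06) and the follicle-guiding receptor gene Gpr183 (log2 -0.67 and -0.85). Of 8 reported SPI1 or SPIB targets, 1 rose and 3 fell in CKO mice, and 1 rose and 4 fell in Control mice, with medians of -0.44 and -0.34. The purinergic receptor gene P2ry10 fell (log2 -0.999 in CKO and -0.95 in Control mice), with Grap2 and Bach2. In both genotype comparisons and in their difference, edgeR called 0 of the 104 genes tested of these 8 lists. An unadjusted edgeR p under 0.05 was found for 9 in MZ, 8 in FO and 2 for the difference. Over all genes tested it was found for 512 of 17658 in MZ, 717 of 17777 in FO and 238 of 18546 for the difference.

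**Figure D5:**
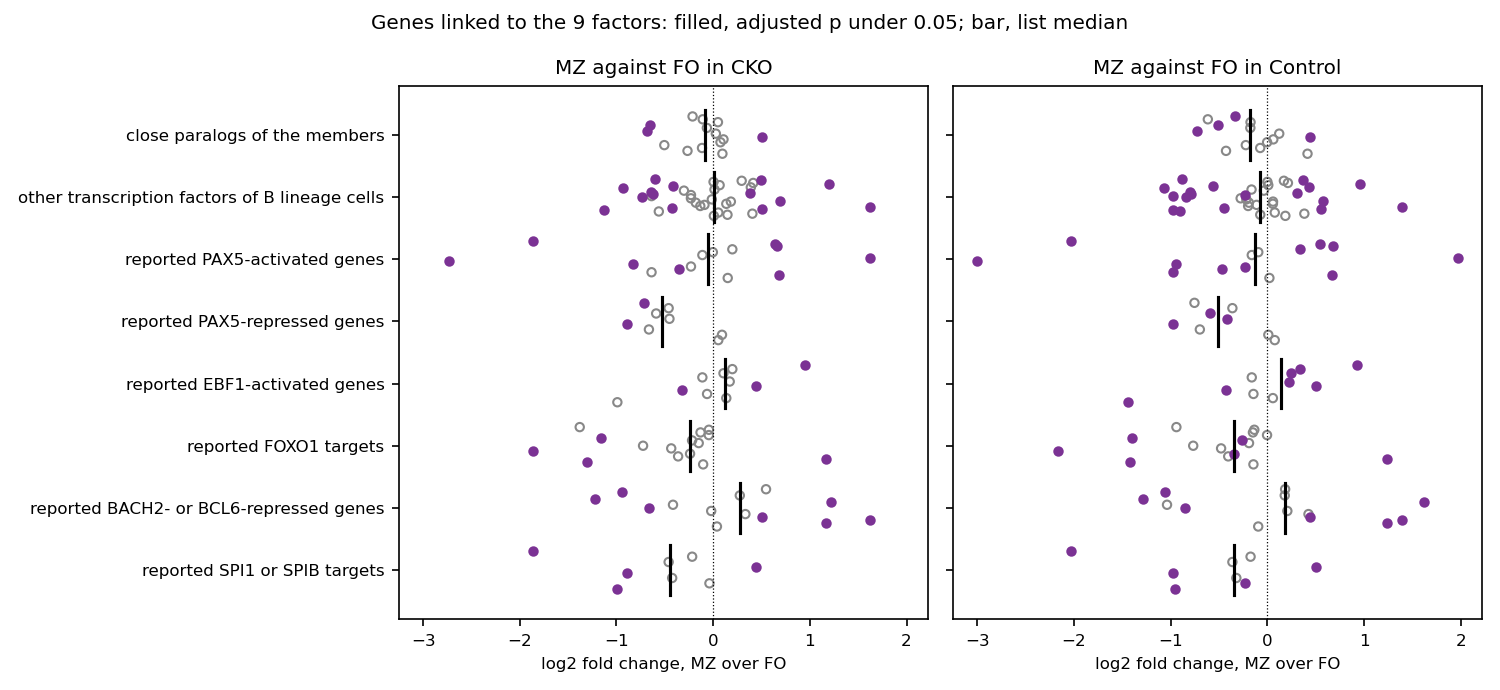
log2 fold change of MZ over FO (x axis) for the tested genes of 8 lists (y axis) in CKO and Control mice; filled points passed at an adjusted p under 0.05, and bars are list medians. Lists hold genes on both sides of 0, with medians from -0.53 to 0.28 in CKO mice.

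For Bach2, Bcl6 and Satb1, the genes most like each in profile were taken from 9650 protein-coding genes with a mean of at least 5 CPM, by the root mean square distance of centred log2 levels over the 12 libraries. Bach2 was followed most closely by Fry (0.119), Klf2 (0.122) and Ndrg1 (0.129). Fry averaged 33.4 and 30.5 CPM in MZ CKO and MZ Control libraries, against 113 and 114 CPM in FO CKO and FO Control libraries. For Bcl6 they were Gpr146 (0.0996), Gmfg (0.113) and Tctn1 (0.116). For Satb1 they were Cmah (0.0920), Add3 (0.0956) and Ripor2 (0.0959), with Cmah, the sialic acid hydroxylase gene, at 155 and 141 CPM in MZ CKO and MZ Control libraries, against 335 and 336 CPM in FO CKO and FO Control libraries.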

How the data were processed

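RNA of MZ and FO B cells from 3 CKO and 3 Control mice was sequenced, 1 library per mouse and cell type. The authors deposited unnormalized read counts for each Ensembl gene identifier. Per the submitters' processing notes, the authors used TopHat, HTSeq and DESeq2 on GRCm38, with no versions. The strand setting and the annotation release are not given in the sources used here, and alignment and counting were not repeated. The 5 entries naming no gene held 43.2 to 50.4% of listed reads and were left out. Libraries of a group differed by more than sampling noise, so none was counted as a duplicate.

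Counts were tested with edgeR 4.0.16 in R 4.3.3: filterByExpr, TMM, the robust quasi-likelihood F test, two-sided, Benjamini-Hochberg adjustment over all genes tested, and a call at an adjusted p under 0.05. Each comparison was fitted to its own 6 libraries, and the difference of genotype effects to all 12. The standard error of a log2 fold change is its size over the root of F. The 95% intervals use the total degrees of freedom of the gene, which are the residual ones plus the prior ones that edgeR estimates over all genes. The exact smallest p of a permutation test of 3 against 3 is 0.1, so none is given. Alternatives were DESeq2 1.42.0, limma-voom (limma 3.58.1), DESeq2 size factors, no filter, no robust estimation, all 12 libraries, a replicate block and leaving out each library, or both libraries of a mouse, the last chosen after the data were seen. The test was run on simulated counts before use.

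Label numbers pair the MZ and FO libraries: deviations from group means correlated at 0.464, 0.651 and 0.604 in CKO and at 0.426, 0.612 and 0.516 in Control mice over 18546 genes. Same-numbered FO CKO and FO Control libraries correlated at 0.104, 0.323 and 0.361.

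The 9 genes, the 8 lists of linked genes and the 12 marker lists were chosen with earlier results of these data known. From each linked list up to 4 called genes with the smallest adjusted p were named per comparison (1 such gene is not reported here), and for the 3 genes with the widest range the 3 nearest profiles, on log2 of CPM plus 0.5. TPM used exon lengths of GENCODE M21.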

Additional observations from a re-analysis of the deposited data

How the results depend on the processing

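Over the alternatives run, 5 of the 9 genes passed for MZ against FO in Control mice under every one. In CKO mice the count was 5, except 4 without robust estimation, with limma-voom and without mouse 1514, and 3 without mouse 1512 or mouse 2002. It was also 4 when any 1 library other than MZ CKO replicate 1 was left out (range 4 to 5). Bach2, Bcl6 and Satb1 passed under all the alternatives. Foxo1 in CKO mice missed the threshold without robust estimation (adjusted p = 0.0511) and with limma-voom (0.0523), ranged from 0.0129 to 0.151 with 1 library left out, and was 0.0574, 0.115 and 0.194 without mouse 1512, 1514 or 2002. None of the 9 passed for genotype in any alternative.

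Counts over all genes moved more. For MZ against FO the replicate block gave 6333 in CKO and 7805 in Control mice, omission of 1 library 1898 to 2884 and 3585 to 5012, omission of mouse 1512 or 2002 in CKO mice 1016 and 1770.0, and omission of mouse 1505 or 2003 in Control mice 2816 and 2888. For CKO against Control in MZ the count was 95 with no filter, 7 without robust estimation, 35 with DESeq2, 7 with limma-voom, 57 with the replicate block and 5 to 34 with 1 library left out. In FO it was 140.0 with no filter, 42 with DESeq2, 25 with the block and 11 to 31 with 1 library left out. The block gave 4 for the difference of effects. Same-numbered MZ CKO and MZ Control libraries correlated at -0.0654, 0.362 and 0.365 for replicates 1, 2 and 3. Replicates 2 and 3 thus shared some structure across genotypes, although they came from different mice. The labels do not say what it stands for. Replicate 2 had the highest summed neutrophil, macrophage and monocyte, and erythroid markers in each of the 4 groups. Its neutrophil sums were 267, 166, 437 and 228 CPM in MZ CKO, MZ Control, FO CKO and FO Control libraries. Replicate 3 had the lowest erythroid sum in each group, at 12.6, 4.99, 14.2 and 5.14 CPM in the same order. The part of these markers in the shared structure was not tested. The block changed no call among the 9.

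Several uncalled log2 fold changes crossed 0 with 1 library left out. In FO genotype these were Pax5 (-0.024 to 0.052), Ebf1 (-0.066 to 0.0037), Foxo1 (-0.079 to 0.011), Satb1 (-0.043 to 0.039) and Spi1 (-0.083 to 0.049). In MZ genotype they were Bcl6 (-0.11 to 0.068), Foxo1 (-0.025 to 0.14), Irf8 (-0.0012 to 0.12) and Spib (-0.0031 to 0.18). For MZ against FO they were Spib in Control mice (-0.013 to 0.079, and -0.0154 without mouse 1507 and -0.0163 without mouse 2003), and Ebf1 (-0.0090 to 0.066) and Spi1 (-0.052 to 0.088, and -0.0542 without mouse 1512) in CKO mice. For the difference of effects it was Bcl6 (-0.025 to 0.17, and -0.0152 without mouse 1505). The cause was not tested.

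Each group held 3 libraries, and within-group coefficients of variation were 0.292 to 14.0%. For genes that did not pass, changes within the printed intervals were not excluded.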

Other observations

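Markers of further cell types were also summed, and their part in the differences above was not tested. For MZ against FO, 18.3% of all genes were called in either direction in CKO and 27.9% in Control mice. The 6 pan-B markers summed to 13649 to 15946 CPM in MZ CKO and 14095 to 14684 CPM in MZ Control libraries, against 11439 to 12547 CPM in FO CKO and 10793 to 12184 CPM in FO Control libraries, with 2 of 6 higher in MZ in CKO and 4 of 6 in Control mice. The 5 plasma cell markers summed to 532 to 550.1 CPM in MZ CKO and 528 to 588 CPM in MZ Control libraries, against 440.1 to 528 CPM in FO CKO and 478 to 539 CPM in FO Control libraries. Of these, 2 rose and 1 fell in MZ in each genotype, and Prdm1 and Irf4 are in the list. The 4 NK cell markers summed to 32.7 to 58.0 CPM over all libraries, with 1 higher and 1 lower in MZ CKO and 0 called in Control mice. The 7 conventional dendritic cell markers summed to 37.3 to 77.4 CPM, with 1 lower in MZ in CKO and 2 lower in Control mice. The 11 macrophage and monocyte markers summed to 131 to 323 CPM, with 1 lower in MZ in CKO mice and 0 called in Control mice. The 10 neutrophil markers summed to 69.0 to 437 CPM, with 0 called in CKO mice and 1 lower in MZ in Control mice. The 5 erythroid markers summed to 4.99 to 234 CPM and 0 were called. By edgeR 0 of the 84 marker genes were called in either genotype comparison, and 5 in MZ and 13 in FO had an unadjusted p under 0.05. Over all genes tested, 512 of 17658 in MZ and 717 of 17777 in FO B cells did.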
